A study of Heterocephalus glaber with 3 samples.

Results

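The cells described here are dividing T cells found in the lung tumours of 3 animals of the naked mole-rat (Heterocephalus glaber), a long-lived rodent. They were chosen from droplet single-cell RNA sequencing by 6 genes. A cell had to hold at least 2 unique molecular identifiers (UMIs, each standing for 1 captured RNA molecule) of CD3D, CD3E and CD3G together, at least 5 such UMIs per 10000, and at least 3 UMIs of TOP2A, UBE2C and CENPF. Of 25044 cells that passed the quality filters, 6244 met the CD3 condition (CD3 cells), and 857 of these also met the cycle condition: 267 in replicate 1, 447 in replicate 2 and 143 in replicate 3. They were set against cells drawn from the other 5387 CD3 cells. Where one could be found, each proliferating cell was matched to 1 other CD3 cell of its own library with a similar UMI total. This gave 208, 314 and 142 pairs in replicates 1, 2 and 3. A further comparison matched them in the same way to cells drawn from 1385 dividing cells with no CD3 UMI.

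All animals form 1 group: lung tumours taken 15 weeks after infection with a virus that delivered gene edits, among them, per the labels, an inversion joining Eml4 to Alk and the loss of Rb. No untreated animal is named, so every comparison is between cells of the same animals. The labels do not say which cells carried the edits, and each animal gave 1 library of hand-dissected tumour, so immune cells of the tumour margin and of blood cannot be told apart from cells within the tumour. The animals are numbered separately in the labels and were counted as 3 replicates.

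CD3D, CD3E and CD3G are chains of the complex that carries the signal of the T cell receptor into the cell. T cells that meet their antigen divide many times, and their daughters become killers that carry granzymes, helpers that carry CD4, or regulatory cells that carry FOXP3 and restrain the others. In human and mouse tumours, dividing T cells are known to include both killer and regulatory cells. Of the 3 cycle genes, TOP2A untangles DNA, UBE2C helps the anaphase-promoting complex to mark proteins for destruction, and CENPF sits at the kinetochore. All 3 peak late in the cycle, so the rule takes cells late in S phase, in G2 and in mitosis more readily than cells that have just entered the cycle.

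Libraries held 76093932, 86575320 and 91949365 UMIs in replicates 1, 2 and 3. The proliferating cells had medians of 10213, 11005 and 8799 UMIs and 2751, 3000 and 2434 genes per cell, against 2503, 2620 and 3035 UMIs and 1031, 1131 and 1146 genes in the other CD3 cells. Mitochondrial transcripts took medians of 6.52%, 6.34% and 6.99% of their UMIs, against 7.95%, 7.48% and 9.15%. None of the proliferating cells' barcodes occurred in 2 libraries (0 shared, against 53 among all passing cells). A doublet score of at least 0.2 (Scrublet) was given to 11, 20 and 9 of them.

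The share of CD3 cells that were proliferating was 12.3% in replicate 1 (95% exact binomial interval 10.9 to 13.7), 17.6% in replicate 2 (16.1 to 19.2) and 9.33% in replicate 3 (7.92 to 10.9), with a mean of 13.1% ± 4.20 (SD, n = 3). The intervals do not overlap, and they cover counting error only. The rule sets this share, and a deep cell meets it more easily than a shallow one. With cells thinned to 2000 UMIs the shares were 10.3%, 12.9% and 5.27% of the 1500, 1807 and 1443 cells that still met the CD3 condition. Shallower CD3 cells were left out of this, 594, 586 and 0 of them, so the omission touched replicates 1 and 2 alone. With a minimum of 2000 UMIs and no thinning the shares were 16.6%, 22.4% and 9.33%. After removal of cells with UMIs of other lineages, described below, they were 17.0%, 29.8% and 16.2%, with a mean of 21.0%, and replicates 1 and 3 then lay close together. The proliferating T cells made up 29.2%, 36.6% and 14.7% of all cells with at least 3 cycle UMIs, so in each tumour most dividing cells fell outside them. Not all of those lacked CD3. Of them, 211, 426 and 227 held CD3 UMIs but did not meet the CD3 condition, and 437, 347 and 601 held none. The cells below the CD3 condition entered no comparison.

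The genes of the rule are given as a description, since they chose the cells. TOP2A stood at 972, 1416 and 1039 CPM (UMIs per 1000000 UMIs of the summed cells) in proliferating cells of replicates 1, 2 and 3, and at 20.8, 33.5 and 18.5 CPM in all other CD3 cells. CD3D stood at 1362, 1099.9 and 1395 CPM in proliferating cells and at 2353, 1727 and 2134 CPM in the other CD3 cells. A proliferating cell held a median of 25, 25 and 20 CD3 UMIs, against 10, 8 and 11, so its CD3 counts were higher per cell and lower as a share of the cell's UMIs. Few cells sat at the edge of the rule. There were 27, 36 and 15 members with exactly 3 cycle UMIs, and 49, 68 and 42 CD3 cells with 2 that were left out, while the median member held 15, 16 and 12.

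The T cell label was set beside a list of 12 T cell markers, which includes the CD3 genes of the rule. All 10 measured markers had counts in every animal, which for the CD3 genes follows from the choice of cells. The presence of counts does not by itself mark T cells. In dividing cells without CD3 UMIs, 6, 6 and 7 of the 10 also had counts. CD2, an adhesion receptor of T cells, was at 95.6, 107 and 74.2 CPM, and LCK, the kinase that starts T cell receptor signalling, at 161, 269 and 113 CPM. NCAM1, the only natural killer cell marker measured, was at 0.326, 0.870 and 0 CPM. RNA of other lineages was present as well. The plasma cell list, which is nearly all immunoglobulin IGKC, summed to 114, 53.4 and 103 UMIs per 10000, and the macrophage list to 7.12, 6.91 and 7.96. Among epithelial markers KRT5 was at 0 in all 3 animals, while SFTPC, a lung surfactant gene, reached 988 CPM in replicate 3 against 33.9 and 45.8 CPM in replicates 1 and 2.

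Within the proliferating cells the cycle genes outside the rule separated earlier from later stages. The G1/S and DNA replication list, which holds the replication clamp gene Pcna and the MCM helicase genes, rose with the rule genes at first and then dropped. In replicate 1 it took 20.4 of 10000 UMIs in cells with 3 cycle UMIs, 22.3 with 4 to 9, 20.9 with 10 to 24 and 12.9 with 25 or more. In replicate 2 these levels were 16.6, 22.4, 20.7 and 13.1, and in replicate 3 they were 11.5, 17.6, 18.2 and 9.49. The mitosis list, which holds the spindle and kinetochore genes KIF11, BUB1 and PLK1, kept climbing, to 25.3, 27.1 and 26.3 of 10000 UMIs in cells with 25 or more cycle UMIs. The same animals had 6.61, 4.14 and 3.69 at 3 cycle UMIs. CD3 cells just outside the rule, with 2 cycle UMIs, had 11.4, 10.0 and 8.58 of 10000 UMIs in the replication list, between the members at 3 and the CD3 cells with none (3.91, 4.27 and 2.94).

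**Figure D1:**
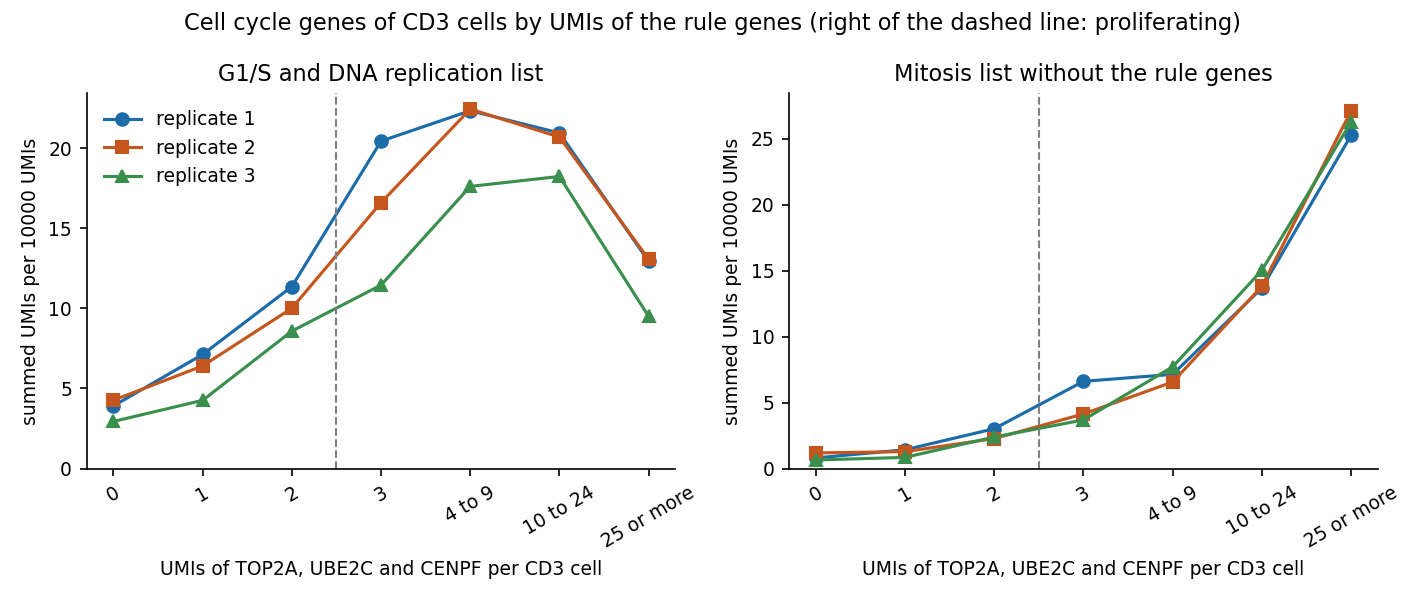
Summed UMIs per 10000 of the G1/S and DNA replication list (left) and of the mitosis list without the rule genes (right) in CD3 cells grouped by their UMIs of TOP2A, UBE2C and CENPF; each line is 1 animal and members lie right of the dashed line. The replication list falls to 12.9, 13.1 and 9.49 in cells with 25 or more cycle UMIs, where the mitosis list is at 25.3, 27.1 and 26.3.

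The proliferating cells were of several kinds, and replicate 3 stood apart. CD8A and CD8B are not among the symbols of the feature list, so killer cells were marked by granzymes (GZMA, GZMB, GZMK or GZMH), the proteases that killer cells load into their granules. Cells with a granzyme UMI and no CD4 UMI made up 63.7% and 63.1% of the proliferating cells in replicates 1 and 2 (95% exact intervals 57.6 to 69.4 and 58.4 to 67.6), and 23.1% in replicate 3 (16.4 to 30.9). Cells with a CD4 UMI and no granzyme UMI made up 12.7%, 6.71% and 38.5%. Cells with both were at 4.87%, 18.6% and 8.39%, and cells with neither at 18.7%, 11.6% and 30.1%. Replicate 3 differed in the same direction among the matched other CD3 cells, so this was not particular to the proliferating cells. In those matched cells GZMA had a UMI in 45.7%, 54.8% and 21.1%, and CD4 in 29.8%, 32.2% and 43.0%. FOXP3 had a UMI in 14.9%, 14.3% and 12.7% of them, with no rise in replicate 3. That depended on which cells were kept. After removal of cells with UMIs of other lineages, described below, FOXP3 had a UMI in 24.1%, 18.5% and 33.3% of matched cells, highest in replicate 3.

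FOXP3, the factor that defines regulatory T cells, had a UMI in 8.99% and 9.17% of proliferating cells in replicates 1 and 2 (5.84 to 13.1 and 6.66 to 12.2), and in 24.5% in replicate 3 (17.7 to 32.4). Among the cells with CD4 and no granzyme, FOXP3 was present in 38.2%, 43.3% and 38.2%, that is in 13 of 34, 13 of 30 and 21 of 55 cells (22.2 to 56.4, 25.5 to 62.6 and 25.4 to 52.3). These intervals overlap and are wide, and the difference between animals was not tested. TRDC, the constant region of the gamma-delta T cell receptor, had a UMI in 5.62%, 1.34% and 2.10% of proliferating cells. A UMI can come from free RNA. In cells with fibroblast markers GZMA had a UMI in 14.2%, 22.5% and 3.50%, against 63.9%, 75.8% and 24.6% in the matched proliferating cells, and FOXP3 in 0%, 1.20% and 0%, against 6.73%, 9.24% and 24.6%. CD4 had a UMI in 3.00%, 6.61% and 4.20% of the fibroblast-marker cells, against 18.3%, 22.9% and 47.2% of the matched proliferating cells. The CD4 class without granzyme, at 6.71% in replicate 2, also requires that no granzyme UMI was found. It therefore cannot be set directly against the share of fibroblast-marker cells with any CD4 UMI. How many of its CD4 UMIs came from free RNA was not tested. GZMB had a UMI in 5.99%, 3.00% and 6.29% of the fibroblast-marker cells, against 19.7%, 20.4% and 7.75%, so in replicate 3 it was close to background. The median depths were 9967, 8064 and 8715 UMIs in fibroblast-marker cells, against 8794, 9105 and 8762 in the matched proliferating cells.

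**Figure D2:**
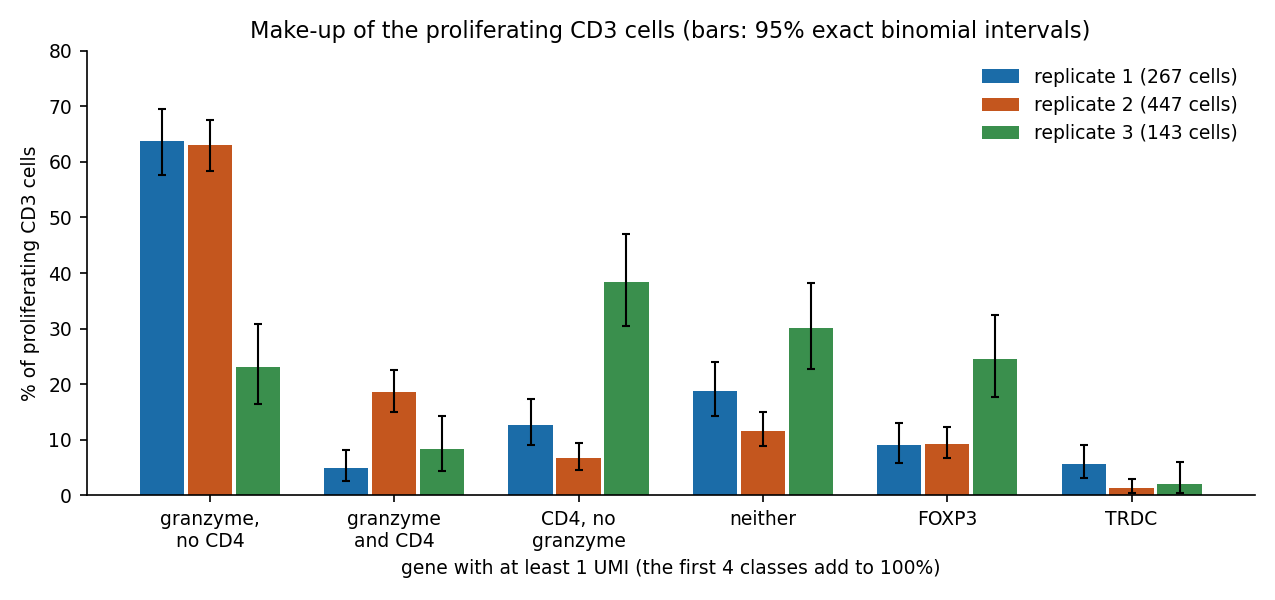
Percent of proliferating CD3 cells with at least 1 UMI of the named genes in replicates 1, 2 and 3; bars are 95% exact binomial intervals. The granzyme class without CD4 stands at 63.7%, 63.1% and 23.1%, and the CD4 class without granzyme at 12.7%, 6.71% and 38.5%.

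The first comparison asks how dividing T cells differ from the other T cells of the same tumour. A match was found for 208, 314 and 142 proliferating cells, with medians of 8794, 9105 and 8762 UMIs, against 7425, 7236 and 8565 UMIs in their matched cells. The members without a match were mostly the deepest. Counts were summed per animal and class, the 6 rule genes were removed, and edgeR's quasi-likelihood test with the animal as block and Benjamini-Hochberg adjustment called 1248 of 8805 genes higher (14.2%) and 1407 lower (16.0%), 30.2% in all. DESeq2 called 662 and 791, and edgeR without the block 560 and 692. Fold changes below are log2, proliferating over matched, with standard errors, and the median over all genes was 0.002.

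The matched cells, which are the deepest of the other CD3 cells, held more RNA of other lineages. This difference runs alongside the whole of this first comparison. All 9 tested macrophage markers (median −1.50) and all 7 tested fibroblast markers (median −2.84) were lower in the proliferating cells. The macrophage list summed to 6.36, 7.02 and 7.98 UMIs per 10000 in proliferating cells, against 17.3, 9.88 and 23.0 in matched cells, and the plasma list to 101, 24.3 and 105, against 242, 93.7 and 995. Among the 15 genes that fell most were DCN and MMP3 of fibroblasts, Apoe of macrophages, and PLAC8, at 31.4, 29.4 and 6.73 CPM in proliferating cells, against 255, 235 and 35.1 CPM in matched cells (−2.95 ± 0.14, adjusted p = 4.3e-06). The fit was therefore repeated after removing cells with other-lineage UMIs from both classes, which left 79, 81 and 51 pairs and 5276 genes. The macrophage list then summed to 2.68, 3.52 and 3.36 per 10000 in proliferating cells, against 2.67, 3.65 and 3.05 in matched cells, and 341 genes were higher and 256 lower. Of these, 316 and 127 had also been called in the full comparison. Values from this second fit are given below as "with mixed cells removed".

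The cell cycle lists follow from the choice of cells, and their values are a description. All 13 tested mitosis genes were higher, with a median of 3.92, or 3.77 with mixed cells removed. KIF11, the motor that pushes spindle poles apart, was at 137, 128 and 153 CPM in proliferating cells of replicates 1, 2 and 3, against 9.47, 3.64 and 4.5 CPM in matched cells. CDC20, which switches on the anaphase-promoting complex, was at 87.6, 67.1 and 102 CPM in proliferating cells, against 1.18, 3.64 and 3.6 CPM in matched cells. SGOL1, which protects the cohesin between sister chromatids and had the largest fold change among called genes of at least 50 CPM, was at 75.9, 82.4 and 94.2 CPM in proliferating cells, against 4.15, 0.727 and 1.8 CPM in matched cells (5.32 ± 0.32). In all of these each proliferating value lay above each matched value.

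Replication and nucleotide genes moved less than mitosis genes. All 14 tested G1/S genes were higher with a median of 1.33, and 10 of 12 nucleotide synthesis genes with a median of 0.85. Their medians were 0.56 and 0.47 with mixed cells removed, where 4 of 13 and 4 of 11 passed. Pcna was at 651, 531 and 492 CPM in proliferating cells of replicates 1, 2 and 3, against 301, 184 and 127 CPM in matched cells (1.51 ± 0.14, or 0.78 with mixed cells removed). TK1 and RRM2, which supply thymidine and deoxynucleotides, were at 2.44 ± 0.16 and 2.85 ± 0.21, and at 1.55 and 1.88 with mixed cells removed. MCM4 was at 1.34 ± 0.12, and at 0.31 with mixed cells removed (adjusted p = 0.45). Of 9 chromatin and histone genes all were higher (median 2.12). TUBA1B, a tubulin of the spindle in that list, was at 3189, 3130.0 and 3246 CPM in proliferating cells, against 796, 679 and 734 CPM in matched cells, and SMC2, a condensin subunit, at 462, 352 and 353 CPM in proliferating cells, against 104, 63.3 and 58.5 CPM in matched cells.

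Among cyclins, kinases and E2F factors 7 of 12 were higher and 1 lower (median 1.04). CCNE2 and CCNE1, the cyclins E that open S phase, were at 1.90 ± 0.15 and 1.51 ± 0.23, and at 0.93 and 1.65 with mixed cells removed. E2F8, a repressor of E2F targets, was at 39.8, 35.9 and 41.1 CPM in proliferating cells, against 4.74, 1.82 and 0.9 CPM in matched cells, a fold change of 3.89. FOXM1, which drives mitotic genes, was at 24.8, 27 and 24.7 CPM in proliferating cells, against 4.74, 2.54 and 3.6 CPM in matched cells, and CDC25B, the phosphatase that activates mitotic kinase, at 33.3, 47.3 and 39.6 CPM in proliferating cells, against 6.51, 12.7 and 9 CPM in matched cells, fold changes of 2.88 and 2.06. In the pairs without mixed cells E2F8, FOXM1 and CDC25B were at 2.84, 2.49 and 2.14. CCND1, the cyclin D of many epithelial cells, was the 1 that was lower, at 8.9, 10.8 and 2.24 CPM in proliferating cells, against 24.3, 17.8 and 19.8 CPM in matched cells. It was too low to be tested with mixed cells removed.

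Cell cycle brakes went in both directions, 4 of 12 higher and 3 lower (median −0.25), where 14.2% of all genes were called higher and 16.0% lower. BTG2, which holds lymphocytes out of the cycle, fell, at 115, 133 and 139 CPM in proliferating cells of replicates 1, 2 and 3, against 332, 265 and 261 CPM in matched cells (−1.15 ± 0.13, adjusted p = 0.00033). Its groups do not overlap, and with mixed cells removed it was at −0.98 (adjusted p = 0.0045). CDKN1A, the p21 inhibitor, was at −0.94 ± 0.14 (adjusted p = 0.0016), but at 0.15 with mixed cells removed, so its direction turned. CDKN2C, the p18 inhibitor of CDK4 and CDK6, rose by 1.48 ± 0.24 (adjusted p = 0.0019), and RBL1, a relative of RB1, by 1.32 ± 0.19 (adjusted p = 0.0011). They were at 0.56 and 0.31 with mixed cells removed, neither past the threshold. RB1, the brake that the edits target in these tumours, was measured in proliferating cells of every animal, at 35.6, 31.2 and 34.4 CPM in proliferating cells of replicates 1, 2 and 3, against 24.3, 22.5 and 11.7 CPM in matched cells (0.72 ± 0.21, adjusted p = 0.034). It was at 0.61 with mixed cells removed (adjusted p = 0.27), and a UMI of its transcript does not show whether the gene was edited.

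**Figure D3:**
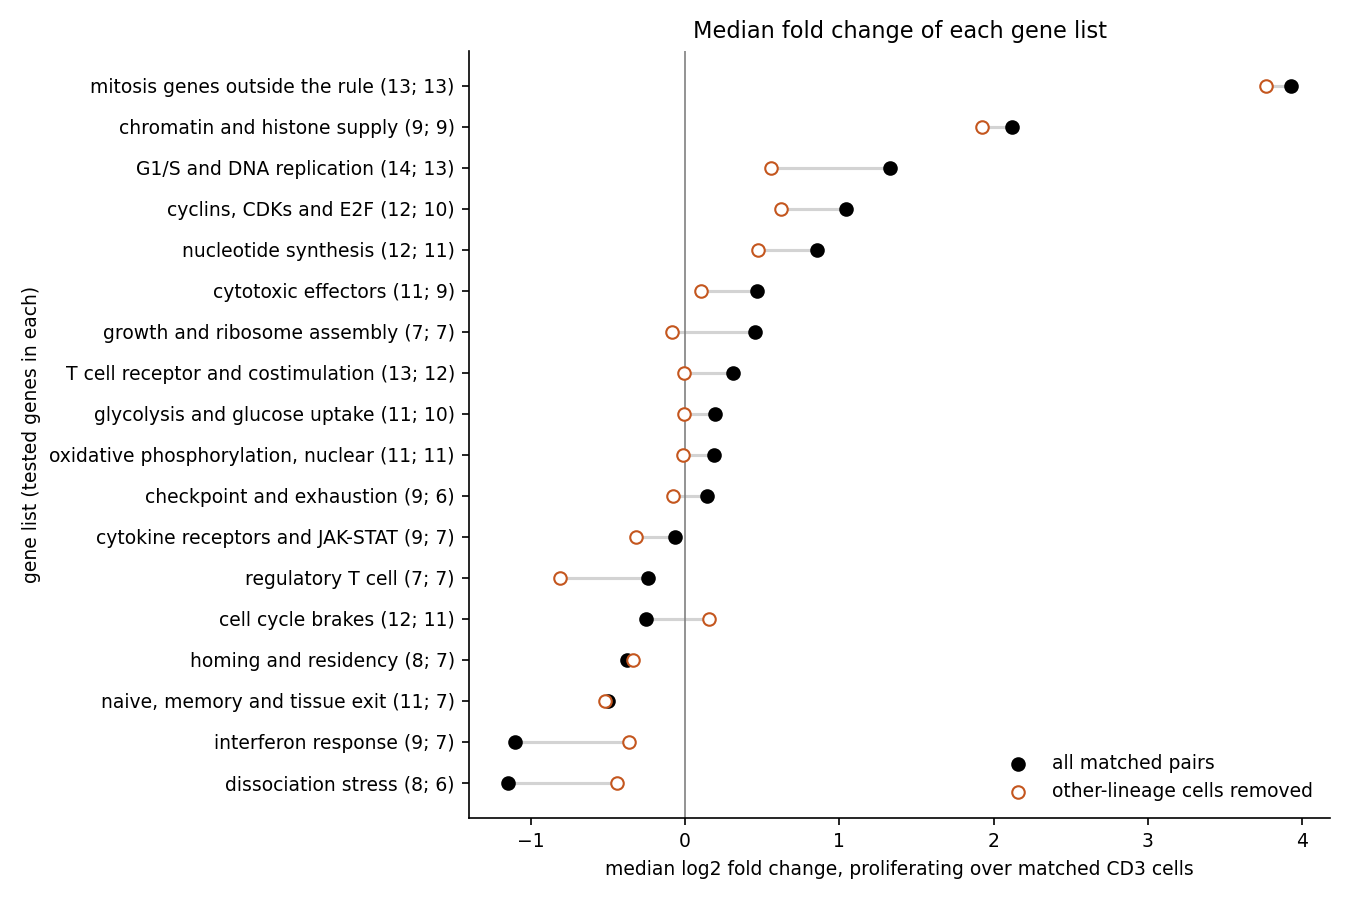
Median log2 fold change, proliferating over matched CD3 cells, of the tested genes of each list in all matched pairs (filled) and with mixed cells removed (open); the numbers after each name are the genes tested in each. The mitosis median is 3.92 and 3.77, while the interferon median is −1.10 and −0.36 and the stress median −1.14 and −0.44.

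Of 11 tested genes of naive and memory T cells, 3 fell and 1 rose (median −0.50), and DESeq2 called 2. That is 4 of 11 called, near the 30.2% called over all genes, so the count is no result about the list. The gene that rose was S1PR1, the receptor by which T cells leave tissue (0.82 ± 0.23, adjusted p = 0.024, and 0.51, not past the threshold, with mixed cells removed). IL7R, the receptor for the survival cytokine interleukin-7, was at 24.4, 17.7 and 102 CPM in proliferating cells of replicates 1, 2 and 3, against 125, 58.2 and 175 CPM in matched cells. It was lower in the proliferating cells of each animal (−1.54 ± 0.25, adjusted p = 0.0022), and at −1.36 with mixed cells removed (adjusted p = 0.0012). The animals lay far apart, replicate 3 being highest in both classes, and without the block the adjusted p was 0.21. CD40LG, the ligand by which helper cells activate B cells and dendritic cells, was at 10.3, 18.6 and 59.8 CPM in proliferating cells, against 29, 47.6 and 74.7 CPM in matched cells (−0.99 ± 0.23, adjusted p = 0.012, or −1.57 with mixed cells removed). CCR7, which guides cells to lymph nodes, was at −0.29 ± 0.16 and not called (adjusted p = 0.22), nor was it with mixed cells removed (−0.63, adjusted p = 0.2).

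A UMI of IL7R was found in 13.5%, 9.24% and 35.9% of proliferating cells, against 40.4%, 25.2% and 54.2% of matched cells. The difference was −20.4 percentage points ± 5.79 (SD, n = 3). In an exact two-sided sign-flip permutation test over 3 animals p cannot go below 0.25, which was the value here, and over the 14 genes compared it was 0.44 after Benjamini-Hochberg adjustment. The difference was −10.5 points ± 10.1 with mixed cells removed.

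Of 7 tested regulatory T cell genes 1 fell, and with mixed cells removed 5 did (medians −0.24 and −0.81). The 1 of 7 lies near the 16.0% called lower over all genes. With mixed cells removed 256 of 5276 genes were called lower. IL2RA, the high-affinity interleukin-2 receptor chain, was lower in both, at 18.7, 5.39 and 44.1 CPM in proliferating cells, against 31.4, 23.6 and 65.7 CPM in matched cells (−1.04 ± 0.27, adjusted p = 0.02, and −2.17, adjusted p = 4.7e-05). The other 4 called with mixed cells removed were TNFRSF4 (−1.20), TNFRSF18 (−0.81), BATF (−0.61) and the checkpoint receptor CTLA4 (−0.55, adjusted p = 0.041). In all matched pairs these were at −0.24, 0.03, 0.13 and 0.09, none past the threshold. FOXP3 was at 10.8, 24 and 53.9 CPM in proliferating cells, against 28.4, 48.4 and 25.2 CPM in matched cells, higher in the proliferating cells of replicate 3 and lower in those of replicates 1 and 2 (−0.48 ± 0.38, adjusted p = 0.39). Without replicate 3 its adjusted p was 0.00056, and TNFRSF4 showed the same split, with 399.6, 398 and 862 CPM in proliferating cells, against 654, 604 and 553 CPM in matched cells. The share of cells with a FOXP3 UMI did not keep this split with mixed cells removed. It was then 7.59%, 12.3% and 23.5% in proliferating cells, against 24.1%, 18.5% and 33.3% in matched cells, lower in each animal.

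Genes of killer cells mostly rose where they were called. Of 11 tested, 5 rose and 1 fell (median 0.47), the 1 being ZEB2, a factor of short-lived killer cells that macrophages also express (−0.97 ± 0.20, adjusted p = 0.007). NKG7, a protein of cytotoxic granules, was at 1634, 1117 and 381 CPM in proliferating cells of replicates 1, 2 and 3, against 738, 565 and 150.3 CPM in matched cells (1.14 ± 0.10, adjusted p = 7.2e-05), and passed with mixed cells removed (0.43, adjusted p = 0.015). EOMES, a master factor of killer and memory cells, was at 118, 142 and 40.4 CPM in proliferating cells, against 49.2, 61.4 and 13.5 CPM in matched cells (1.28 ± 0.12, adjusted p = 0.00016). PRF1, the pore-forming perforin, rose by 0.97 ± 0.19 (adjusted p = 0.005), although in replicate 3 it stood at 20.2 CPM in proliferating cells, against 20.7 CPM in matched cells. GZMA rose by 0.36 ± 0.11 (adjusted p = 0.042), while GZMB was at 0.10 ± 0.17 (adjusted p = 0.77). With mixed cells removed EOMES, PRF1, GZMA, GZMB and ZEB2 were at 0.51, 0.36, −0.02, −0.20 and −0.32, none past the threshold.

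**Figure D4:**
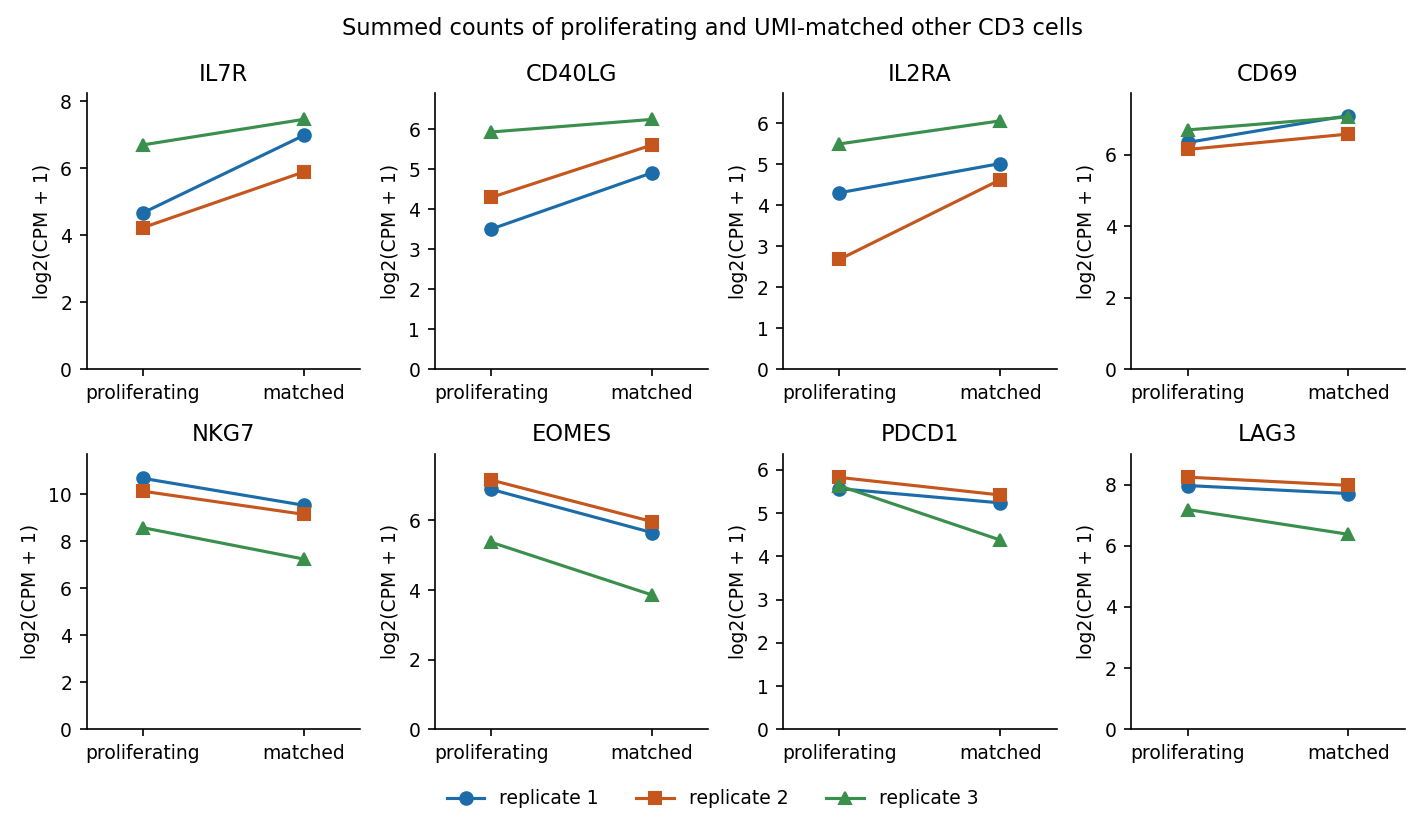
Level of 8 T cell genes as log2(CPM + 1) in the summed counts of proliferating (left) and UMI-matched other CD3 cells (right); each line is 1 animal. IL7R, CD40LG, IL2RA and CD69 are lower and NKG7, EOMES, PDCD1 and LAG3 higher in the proliferating cells of all 3 animals, with fold changes of −1.54 for IL7R and 1.14 for NKG7.

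Checkpoint and exhaustion genes went both ways. Of 9 tested, 4 rose and 4 fell (median 0.14), where edgeR called 30.2% of all genes, and DESeq2 called 3 of the 9. The receptors PDCD1 (PD-1) and LAG3, which restrain activated T cells, and the factors TOX and TOX2 rose. PDCD1 was at 46.4, 55.7 and 48.6 CPM in proliferating cells, against 36.7, 41.8 and 19.8 CPM in matched cells (0.58 ± 0.18, adjusted p = 0.044) and LAG3 at 249, 302 and 144 CPM in proliferating cells, against 208, 250.1 and 81.9 CPM in matched cells (0.41 ± 0.12, adjusted p = 0.034). TOX2 rose by 0.94 ± 0.21 (adjusted p = 0.0098). Once mixed cells were removed PDCD1, LAG3, TOX and TOX2 were at 0.17, 0.01, −0.16 and 0.00, none past the threshold. Among the 4 that fell were NR4A1 and NR4A3, nuclear receptors switched on within minutes of T cell receptor signalling. They were at −1.23 ± 0.13 and −1.07 ± 0.17 (adjusted p = 0.00021 and 0.0019). With mixed cells removed NR4A3, at −1.29, passed (adjusted p = 0.031), while NR4A1, at −0.71, did not (adjusted p = 0.053).

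Genes of the T cell receptor pathway rose in 5 of 13 cases and fell in 0 (median 0.31), and DESeq2 called 4. Over all genes 14.2% were called higher and 30.2% either way. LCK was at 165, 260.3 and 117 CPM in proliferating cells of replicates 1, 2 and 3, against 82.3, 144 and 51.3 CPM in matched cells (0.99 ± 0.11, adjusted p = 0.00027), and the kinase ZAP70, which LCK activates, at 0.87 ± 0.13 (adjusted p = 0.0017). SH2D1A, an adaptor of SLAM receptors, and the costimulator CD28 rose by 1.05 ± 0.13 and 0.78 ± 0.18. None of these passed with mixed cells removed, where they were at 0.22, −0.13, 0.26 and 0.08. There CD27, a costimulator of the tumour necrosis factor receptor family, and CD4 were lower instead (−0.90 and −0.74, adjusted p = 3.7e-06 and 0.022).

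Of 8 genes of homing and tissue residence 4 fell and 2 rose (median −0.37), and with mixed cells removed 3 of 7 fell and 0 rose (median −0.34). Over all genes 30.2% were called in the full comparison, and 256 of 5276 were lower with mixed cells removed. CD69, which keeps T cells in tissue and marks recent activation, was at 80.1, 69.8 and 102 CPM in proliferating cells, against 136, 94.5 and 132 CPM in matched cells (−0.53 ± 0.12, adjusted p = 0.0096). The adhesion receptor CD44 fell, at −0.48 ± 0.10 and RGS1, which blunts chemokine receptors, at −0.63 ± 0.10 (adjusted p = 0.0079 and 0.002). All 3 also passed with mixed cells removed, at −0.91, −0.43 and −0.38. CXCR6, a chemokine receptor of resident killer cells, and the integrin chain ITGA4 rose by 0.80 ± 0.18 and 0.51 ± 0.10 (adjusted p = 0.0093 and 0.0063), and were at 0.32 and 0.11 with mixed cells removed, neither past the threshold.

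Interferon and stress genes were lower against all matched cells, and whether they stayed so depended on how cells were removed. Of 9 interferon genes 7 fell (median −1.10), where 16.0% of all genes were called lower. ISG15, an antiviral ubiquitin-like protein, was at 358, 184 and 113 CPM in proliferating cells, against 1083, 347 and 214 CPM in matched cells (−1.17 ± 0.14, adjusted p = 0.00049). With mixed cells removed, 0 of 7 passed in edgeR (2 at an unadjusted p under 0.05), with a median of −0.36, and ISG15 was at −0.70 (adjusted p = 0.16). With only cells of at least 20 CD3 UMIs per 10000 kept, 7 of 9 fell (median −1.19). All 8 genes of the dissociation stress list, which tissue digestion is known to switch on, fell (median −1.14), among them Fos at −1.61 ± 0.12 and DUSP1, which shuts down stress kinases, at −1.43 ± 0.12. DUSP1 (−0.81, adjusted p = 0.033) was the 1 of 6 that passed with mixed cells removed, where Fos was at −0.41 (adjusted p = 0.26), while at the higher CD3 density 5 of 6 fell (median −0.68). SOCS3 and CISH, which damp cytokine signalling, fell, at −1.87 ± 0.15 and −1.84 ± 0.28 (adjusted p = 6.3e-05 and 0.0015), and SOCS3 was at −0.85 with mixed cells removed, not past the threshold, where CISH was too low to be tested.

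Some genes of the metabolic and growth lists were called, but 1 alone with mixed cells removed. Of 11 glycolysis genes 4 rose and 2 fell (median 0.20), of 11 nuclear genes of oxidative phosphorylation 3 rose (median 0.19), and of 7 growth genes 4 rose and 1 fell (median 0.46). DESeq2 called 3, 1 and 3 genes of these lists. Over all genes edgeR called 30.2%, and the oxidative phosphorylation count lies near that share. NPM1, a chaperone of ribosome assembly, was at 1930.1, 1321 and 1383 CPM in proliferating cells, against 1056, 779 and 719.9 CPM in matched cells (0.86 ± 0.08, adjusted p = 0.00015). The glycolytic enzyme Eno1 rose by 0.39 ± 0.09, while Gpi, the enzyme of the second step of glycolysis, fell, at −0.64 ± 0.09 (adjusted p = 0.01 and 0.0012). In the pairs without mixed cells NPM1 and Eno1 were at 0.06 and −0.01, and Gpi, at −0.90 (adjusted p = 0.00011), was the only gene of these 3 lists to pass.

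The second comparison was made within the proliferating cells and added after the data had been seen. It set 170, 282 and 33 cells with a granzyme UMI and no CD4 UMI (granzyme cells) against 34, 30 and 55 cells with a CD4 UMI and no granzyme UMI (CD4 cells). The granzymes, CD4 and the rule genes were removed, and 69 of 5073 genes were higher (1.36%) and 87 lower (1.71%), 3.08% in all, by edgeR with the animal as block. DESeq2 called 22 and 29, and edgeR without the block 8 and 13. In simulated counts of this size the test recovered 26.6% of genes changed 2-fold and 94.8% of those changed 4-fold, so smaller differences can be missed. The simulation left genes of low CPM unchanged and held no class difference in other-lineage RNA, so these rates need not hold for the real counts.

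Regulatory T cell genes were lower in the granzyme cells in 6 of 7 cases (median −2.08), with mixed cells removed in 6 of 6. These genes go together with CD4 in regulatory T cells, so their direction, too, is partly set by how the cells were split. FOXP3 was at 3.28, 4.45 and 10.5 CPM in granzyme cells of replicates 1, 2 and 3, against 92.6, 79 and 99.2 CPM in CD4 cells (−4.21 ± 0.32, adjusted p = 2.3e-05), with the groups far apart. CTLA4 was at 37.7, 25.5 and 55.8 CPM in granzyme cells, against 234, 76.6 and 182 CPM in CD4 cells (−2.08 ± 0.22, adjusted p = 0.00018). TNFRSF4 (OX40), a costimulator, was at 293, 313 and 531 CPM in granzyme cells, against 1122, 806 and 1355 CPM in CD4 cells (−1.56 ± 0.13). IL2RA and IKZF2 (Helios), a factor of regulatory T cells, both stood at −2.29, with adjusted p = 0.012 and 0.0037. The costimulator ICOS and the factor MAF, outside that list, fell, at −2.14 ± 0.30 and −2.12 ± 0.30 (adjusted p = 0.0018 and 0.0018), and DESeq2 did not call them (adjusted p = 0.054 and 0.11).

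Killer cell genes other than granzymes were higher in 5 of 6 cases (median 2.12). NKG7 was at 2130.0, 1423 and 1232 CPM in granzyme cells of replicates 1, 2 and 3, against 125, 309 and 145 CPM in CD4 cells (3.05 ± 0.25, adjusted p = 2.7e-05). PRF1 was at 273, 238 and 76.8 CPM in granzyme cells, against 0, 79 and 1.98 CPM in CD4 cells (2.87 ± 0.50, adjusted p = 0.0074), and in replicate 2 the CD4 cells held far more of it than in the others. EOMES followed the same pattern, at 157, 187 and 164 CPM in granzyme cells, against 19.1, 90.9 and 1.98 CPM in CD4 cells (2.22 ± 0.43, adjusted p = 0.015), and DESeq2 called neither (adjusted p = 0.28 and 0.34). CTSW, a protease of killer cells, and CRTAM, an adhesion receptor of activated killer cells, were at 2.03 ± 0.19 and 2.65 ± 0.47 (adjusted p = 5.3e-05 and 0.0079). These genes go together with granzymes in killer cells, so their direction is partly set by how the cells were split.

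**Figure D5:**
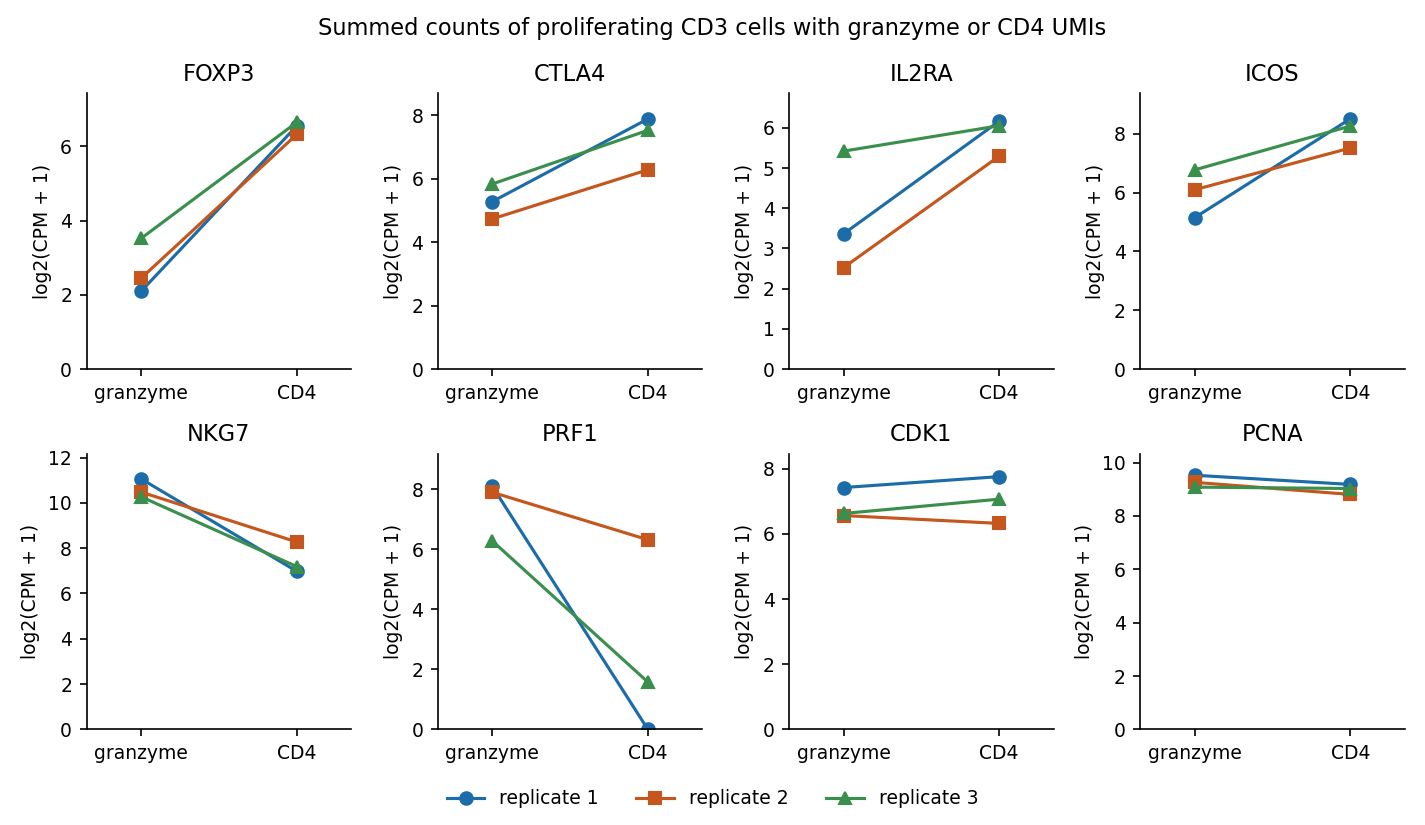
Level of 8 genes as log2(CPM + 1) in the summed counts of proliferating cells with a granzyme UMI and no CD4 UMI (left) and with a CD4 UMI and no granzyme UMI (right); each line is 1 animal. FOXP3, CTLA4, IL2RA and ICOS are lower and NKG7 and PRF1 higher in the granzyme cells of each animal, while CDK1 and Pcna were not called.

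The cell cycle genes were not called between the granzyme and CD4 cells. The split itself did not use them, but every cell in both classes had already met the same cycle condition. Similar levels are therefore partly set by the choice of cells, so these lists cannot show whether the classes divide alike. By edgeR 0 of 13 G1/S genes passed (median 0.10; 1 at an unadjusted p under 0.05), 0 of 13 mitosis genes (median −0.11; 1), 0 of 12 nucleotide genes (median 0.03; 3) and 0 of 9 chromatin genes (median 0.04; 0), and DESeq2 called 0 in each list. CDK1, the kinase of mitotic entry, was at 170.4, 93.5 and 97.7 CPM in granzyme cells, against 215, 79 and 133 CPM in CD4 cells (−0.18 ± 0.17, adjusted p = 0.74). Pcna was at 737, 612 and 541 CPM in granzyme cells, against 580.3, 447 and 522 CPM in CD4 cells (0.29 ± 0.12, adjusted p = 0.3). Cells with 10 or more cycle UMIs made up 70.0%, 68.4% and 45.5% of granzyme cells, against 67.6%, 63.3% and 67.3% of CD4 cells, so the classes differed most in replicate 3, where the granzyme cells were also the shallowest (median 7666 UMIs, against 10154). Of 10 brakes 1 fell, PDCD4, a translation inhibitor, at 54.1, 92 and 62.8 CPM in granzyme cells, against 139, 184 and 131 CPM in CD4 cells (−1.13 ± 0.16, adjusted p = 0.002).

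Other-lineage RNA differed between these 2 classes too, and its part in the result was not tested. IGKC was at 17149.8, 2230.2 and 30611 CPM in granzyme cells, against 2321, 1830.4 and 2107 CPM in CD4 cells (2.41 ± 0.48), and COL1A1, a collagen of fibroblasts, at 29.5, 55.2 and 255 CPM in granzyme cells, against 10.9, 16.7 and 13.9 CPM in CD4 cells (2.90 ± 0.43), both higher in the granzyme cells. The macrophage genes C1QA and MRC1 were lower there (−1.47 ± 0.20 and −1.74 ± 0.22). The epithelial list summed to 1.25, 0.93 and 0.89 UMIs per 10000 in granzyme cells, against 0.68, 0.49 and 24.6 in CD4 cells. With mixed cells removed from both classes FOXP3 was at −4.84, CTLA4 at −2.32 and NKG7 at 2.69, all past the threshold, and IGKC was at 0.15 and not past it.

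The third comparison set the proliferating T cells against the dividing cells of the same tumours that held no CD3 UMI, for the cell cycle lists alone. It used 202, 223 and 135 pairs matched on UMIs, with medians of 12029, 15680 and 8920 UMIs, against 11614, 15052 and 8762. Over all genes 1913 of 9497 were higher (20.1%) and 2260 lower (23.8%), 43.9% in all. The cells without CD3 were a mixture, with macrophage lists of 23.1, 30.8 and 31.5 UMIs per 10000 and fibroblast lists of 20.4, 10.2 and 6.75, against 7.64, 7.75 and 8.02 and against 2.17, 1.90 and 1.63 in the proliferating T cells. Both classes met the same cycle condition, but the rule genes stood at 21.9, 23.6 and 23.9 UMIs per 10000 in the T cells and at 11.1, 11.1 and 12.2 in the others, and this difference moves with all cycle genes.

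Replication genes were higher in the T cells in 11 of 14 cases (median 0.87), nucleotide genes in 9 of 12 (0.57), chromatin genes in 7 of 9 (0.80) and mitosis genes in 10 of 13 (0.52). Pcna was at 622, 466 and 486 CPM in proliferating CD3 cells of replicates 1, 2 and 3, against 262, 165 and 148 CPM in dividing cells without CD3 (1.48 ± 0.12, adjusted p = 5.2e-05). NUSAP1, which bundles spindle microtubules, rose by 1.31 ± 0.11 (adjusted p = 7.3e-05), while CDC20, at 0.16 ± 0.11, was not called (adjusted p = 0.27). CDK1 rose by 0.36 ± 0.12 (adjusted p = 0.038), and DESeq2 did not call it (adjusted p = 0.18).

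Cyclins and brakes differed in both directions between the T cells and the other dividing cells. Of 13 cyclin, kinase and E2F genes 7 rose and 2 fell. CCNE2 was at 55.3, 119.8 and 50.3 CPM in proliferating CD3 cells, against 18.7, 20.9 and 18.6 CPM in dividing cells without CD3 (1.97 ± 0.22, adjusted p = 0.00029), and CDK6, the partner of D cyclins in blood cells, at 16.7, 14.9 and 13 CPM in proliferating CD3 cells, against 2.98, 5.83 and 4.05 CPM in dividing cells without CD3 (1.74 ± 0.30, adjusted p = 0.0023). CCND2, the D cyclin of lymphocytes, rose by 0.98 ± 0.18 and CCND1 fell, at −1.32 ± 0.28 (adjusted p = 0.0034 and 0.0061), with the third D cyclin, CCND3, also lower (−0.50 ± 0.12, adjusted p = 0.01). Of 13 brakes 4 rose and 4 fell. CDKN1A was at 51, 83.5 and 105 CPM in proliferating CD3 cells, against 146, 181 and 173 CPM in dividing cells without CD3 (−1.13 ± 0.15, adjusted p = 0.00065), and CDKN2B, the p15 inhibitor, at 1.82, 1.41 and 2.29 CPM in proliferating CD3 cells, against 10.2, 11.7 and 5.67 CPM in dividing cells without CD3 (−2.51 ± 0.40, adjusted p = 0.0016). PDCD4 was at 65.9, 89.6 and 93 CPM in proliferating CD3 cells, against 20.4, 36.3 and 23.5 CPM in dividing cells without CD3 (1.59 ± 0.16, adjusted p = 0.00017), and FOXO1, which holds resting T cells quiescent, rose by 1.99 ± 0.33 (adjusted p = 0.0018). RB1 was at 32.4, 28.5 and 35.8 CPM in proliferating CD3 cells, against 18.3, 15.4 and 17 CPM in dividing cells without CD3 (0.91 ± 0.18, adjusted p = 0.004), and its relative RBL2 rose by 1.00 ± 0.22 (adjusted p = 0.0067). For RB1 and RBL2 each value in the T cells lay above each value in the other dividing cells.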

How the data were processed

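Tumour cells of 3 naked mole-rats were profiled with 10x Genomics 3' droplet sequencing, each animal in a library of its own. The authors deposited raw counts (UMIs for each feature and barcode), made with Cell Ranger (7.1.0 per the file headers, 8.0.0 per the submitters' processing notes). Genome build and annotation: not given in the sources used here. Of 23189 features 11611 have no symbol, and they held 37.8%, 36.8% and 37.2% of the counts of replicates 1, 2 and 3. They entered the fits and were not named. Symbols are as the files give them, since 0 identifiers matched the reference table.

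The quality filters asked for 1000 UMIs or more, 500 genes or more, and less than 20% of UMIs from 13 mitochondrial genes. Matched cells lay within 0.1 log10 UMIs, without replacement. No doublets were removed in the main fits, and removal at a Scrublet score of at least 0.2 was tried as an alternative (scanpy 1.11.5). Counts were summed per animal and class and tested with edgeR 4.0.16 in R 4.3.3 (quasi-likelihood, TMM, filterByExpr, animal as block since each animal supplies both classes, threshold 0.05). DESeq2 1.42.0 was an alternative. CPM values of tested genes are TMM-scaled. Standard errors are the fold change divided by the square root of F. Binomial intervals are at 95%, and they cover counting error only. Cells classed by 6 genes were compared by other genes of the same cells, so p-values between classes are not calibrated for genes that vary with the rule genes. On simulated counts the first comparison's fit recovered 53% of genes changed 2-fold and 100% of those changed 4-fold. All simulations used the same dispersion for every gene and left genes of low CPM unchanged. They held no class difference in other-lineage RNA, so the rates need not hold for the real counts.

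The cells, the 18 gene lists (315 genes, 206 with a symbol, 186 tested) and the markers were chosen with earlier results of these data known. Named genes are list members plus the 15 largest fold changes each way among called genes with a symbol, the same direction in 3 of 3 animals and at least 50 CPM in the higher class. Cells were removed as mixed at 3 or more UMIs per 10000 over macrophage, B, fibroblast, epithelial, endothelial, neutrophil and dendritic markers without CD14 and SFTPC, or with IGKC at 3 or more times the median of the library's CD3 cells. This alternative and the granzyme comparison were added after the data had been seen. The planned comparison by CD8A and CD8B was not run, since neither is among the symbols.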

Additional observations from a re-analysis of the deposited data

How the results depend on the processing

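The block in the fits is the animal, since the classes compared come from the same animals, and leaving it out lowered every count of called genes: to 560 higher and 692 lower against matched CD3 cells (1248 and 1407 with it), to 977 and 1555 against dividing cells without CD3 (1913 and 2260), and to 8 and 13 between granzyme and CD4 cells (69 and 87). DESeq2 gave 662 and 791, 1110 and 1608, and 22 and 29. Against matched CD3 cells, removal of mixed cells gave 341 and 256, a CD3 density of at least 20 per 10000 gave 601 and 545, and no matching gave 2467 and 2431. Between granzyme and CD4 cells, removal of mixed cells gave 39 and 53, removal at a Scrublet score of 0.2 gave 34 and 53, a cycle threshold of 5 UMIs gave 54 lower, and no filter on low counts gave 169 each way. Leaving out 1 animal gave 834 to 1297 higher and 1003 to 1442 lower against matched CD3 cells, and 981 (without replicate 2) to 2009 higher and 1564 to 2481 lower against dividing cells without CD3. Between granzyme and CD4 cells it gave 50 to 144 (without replicate 3) higher and 42 (without replicate 1) to 197 (without replicate 3) lower. The share of CD3 cells that were proliferating was 10.8% to 14.9% with 1 animal left out, and moved to 21.0% once mixed cells were removed. Where a setting does not show it by its own construction, the cause was not tested.

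Directions turned for these genes against matched CD3 cells, as log2 fold changes. With mixed cells removed they were BATF −0.61, CDKN1A 0.15, CTLA4 −0.55, Eno1 −0.0074, GZMA −0.015, GZMB −0.20, TNFRSF18 −0.81, TOX −0.16 and ZAP70 −0.13. At a CD3 density of at least 20 they were BATF −0.40, CTLA4 −0.44, GZMB −0.78 and TNFRSF18 −0.44. No matching gave CTLA4 −0.46, CXCR6 −0.53, GZMA −0.45, S1PR1 −0.26 and TNFRSF18 −0.29. TNFRSF18 was at −0.062 with 2 matched cells per member, −0.027 after the Scrublet removal and −0.031 against cells with 0 cycle UMIs, where GZMB was at −0.10. CD27 was at 0.073 with a cycle threshold of 5, 0.096 when matched within 0.02 log10 and 0.028 with no filter. With 1 animal left out TNFRSF4 lay between −0.63 and 0.015, BATF between −0.051 and 0.27, CTLA4 between −0.24 and 0.34, TNFRSF18 between −0.21 and 0.21 and CD27 between −0.13 and 0.11. CDC20 against dividing cells without CD3 was at −0.11 with a cycle threshold of 5 and −0.011 with no matching. Shares of cells with a UMI, proliferating minus matched in percentage points, turned with no matching for CCR7 (5.69), CD4 (6.08), FOXP3 (5.63) and IL2RA (1.71), and with mixed cells removed for CTLA4 (−11.4), IFNG (−0.61) and TIGIT (−0.78). With 1 animal left out FOXP3 lay between −6.63 (without replicate 3) and 3.44, and TCF7 between −1.06 and 0.16. Of the other alternatives for single genes and shares, 1864 kept direction and, for genes, side of the threshold, 201 lost the call and 15 gained one. No threshold was applied to shares, so those among the 1864 kept their direction only.

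The planned removal of cells with 3 UMIs over other-lineage markers was not run, because it left 1, 0 and 0 matched pairs in the 3 animals, and the planned CD8A and CD8B comparison had no symbols to use. The granzyme and CD4 comparison rests on the fewest cells, its smaller class holding 34, 30 and 33 cells in replicates 1, 2 and 3.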
